A study of Homo sapiens with 4 samples.

Results

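Inflammasomes are protein platforms that sense infection or cell damage and turn on inflammatory caspases. The 10 genes described here encode 6 sensors (NLRP1, NLRP3, NLRC4, NAIP, AIM2 and CARD8), the adaptor PYCARD (also called ASC), the caspases CASP1 and CASP4, and the pore-forming protein GSDMD. They were taken by symbol from the gene-level tables of one RNA sequencing experiment, and 1 Ensembl identifier was found for each of the 10 among 41084 listed identifiers. All 4 libraries came from OCI-AML3, a human acute myeloid leukaemia cell line. In 2 libraries the genotype reads Plex CEBPB and in the other 2 it reads Plex Control; the sources used here do not explain Plex, nor how the CEBPB gene was altered or what drives it. Nothing says that the 2 libraries of a group came from separate cultures, so p-values measure the spread between these libraries, which may be technical.

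In the canonical route, a sensor that meets its trigger gathers ASC into a large speck, ASC draws in caspase-1, and caspase-1 matures the cytokines IL-1β and IL-18 and cuts gasdermin D, whose freed part opens pores in the plasma membrane. In the non-canonical route, caspase-4 binds bacterial lipopolysaccharide itself and cuts gasdermin D without a sensor. Monocytes and macrophages are known for high levels of this machinery, and the series title names IL-1β with C/EBPβ and TNFα in a feedback loop of monocytic leukaemia.

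CEBPB itself, the gene named in the label, read 4.72 and 4.47 TPM in the Control libraries and 536 and 339 TPM in the CEBPB libraries. TPM is a level scaled by transcript length and library size, so levels of different genes can be set side by side. All 8 listed myeloid markers were detected at 1 TPM or more in at least 1 library, and their summed level was 1730 and 1631 TPM in the controls and 7887 and 8157 TPM with CEBPB. LYZ, which made up most of that sum, CD14 and ITGAM lay above the controls in both CEBPB libraries, SPI1, CSF1R and MPO lay below, and CD33 and FCER1G overlapped. MPO, at 0.902 and 1.79 TPM in the controls, was low throughout. The 4 T-cell, 4 erythroid and 4 epithelial markers stayed under 1 TPM in every library. Of the 4 fibroblast markers DCN read 20.4 and 20.8 TPM in the CEBPB libraries against 1.03 and 0.576 TPM in the Control libraries, COL1A1 reached 1.84 TPM, and COL1A2 and COL3A1 lay at or near 0; CD79B was the only one of 4 B-cell markers above 1 TPM, at 5.97 and 5.77 TPM in the controls and 2.22 and 1.32 TPM with CEBPB. Whether another cell type has a part in the results was not tested. The deposited counts summed to 18151225 to 21950575 per library. Read numbers were also recovered, as the product of TPM and effective length brought to each library's total. The chi-square of recovered reads per degree of freedom was 4.66 between the Control and 8.85 between the CEBPB libraries, above counting error alone.

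The 2 caspases and the sensor NLRC4 were higher in the CEBPB libraries, while the sensor NLRP3, the adaptor PYCARD and the pore former GSDMD were lower. The remaining sensors CARD8, NLRP1, NAIP and AIM2 did not pass the test. In total 3 of the 10 genes passed as higher and 3 as lower, with edgeR's quasi-likelihood test at a Benjamini-Hochberg adjusted p under 0.05 over 13698 identifiers. Of all identifiers tested, 23.7% were called higher and 24.7% lower (48.5% in either direction), so 6 of 10 is a share not far from that background. The 2 groups did not overlap in TPM for 7 of the 10 genes, against 77.4% of all identifiers tested. The median log2 fold change of the 10 was -0.15, against 0.00092 over all identifiers tested. edgeR rescaled the libraries by trimmed mean of M values, so its fold changes differ from ratios of the printed TPM values. For CASP1 the log2 change was 1.21 on that scale and 1.39 with library totals alone. Against a change of 1.5-fold, 3 genes stayed higher and 2 lower, and GSDMD no longer passed; 17.3% of all identifiers passed that test.

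**Figure D1:**
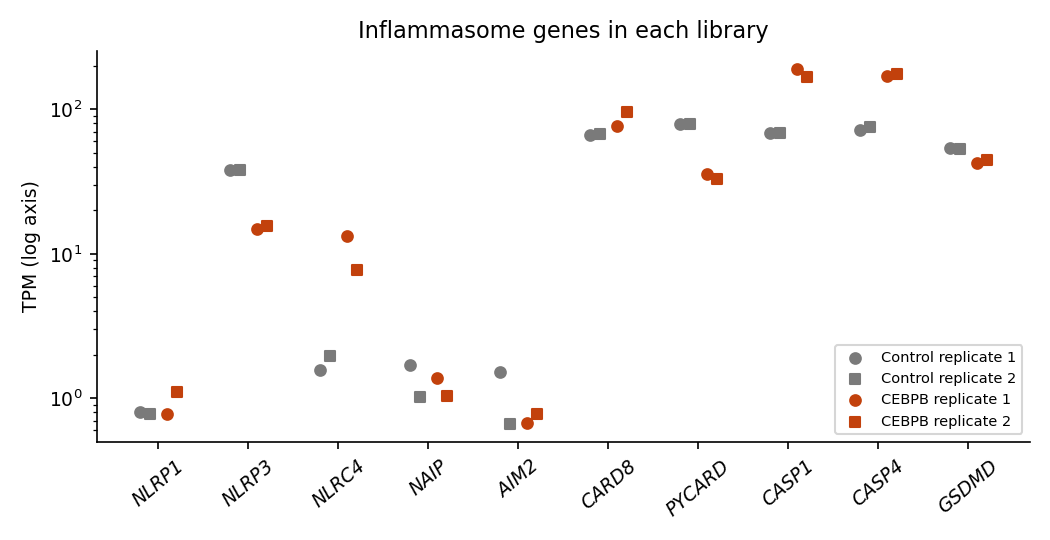
Levels of the 10 inflammasome genes in TPM on a log axis, with 1 point per library (grey, Control; orange, CEBPB; circles, replicate 1; squares, replicate 2). CASP1 and CASP4 sit higher and NLRP3 and PYCARD lower in both CEBPB libraries, and NLRP1, NAIP and AIM2 lie under 2 TPM in every library.

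**Figure D2:**
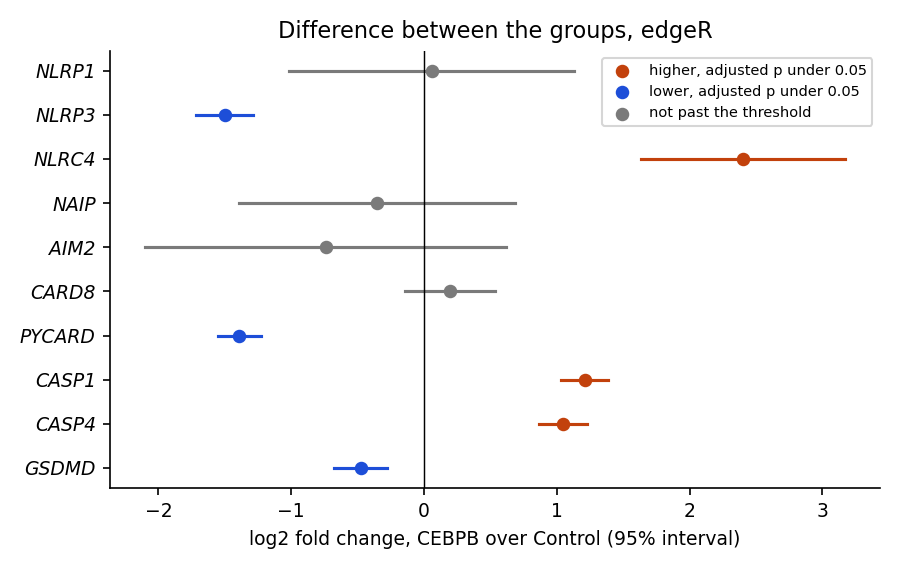
Log2 fold change of each inflammasome gene, CEBPB over Control, with its unadjusted 95% interval from edgeR; colour marks the adjusted p. NLRC4 has the highest value (2.40) and NLRP3 the lowest (-1.5), and the intervals of NLRP1, NAIP, AIM2 and CARD8 include 0.

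NLRP3, a sensor of potassium loss and many other signs of cell stress, was the second most abundant sensor of the control cells. Its gene lies on chromosome 1, 247416156 to 247449108, plus strand (ENSG00000162711.18; all gene positions are those of GENCODE v29 on GRCh38, 1-based). It read 37.8 and 38.1 TPM in the Control libraries and 14.9 and 15.5 TPM in the CEBPB libraries. The replicates of each group lay close together and the groups did not overlap. edgeR put the change at -1.5 on the log2 scale, with an SE of 0.09 and an adjusted p of 2.6e-04. In these bulk libraries, fewer cells with a transcript and less of it per cell cannot be told apart.

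NLRC4, the sensor that assembles on NAIP proteins bound to flagellin or to the needle of bacterial secretion systems, moved the other way (ENSG00000091106.19, chromosome 2, 32224453 to 32265854, minus strand). It read 1.56 and 1.96 TPM in the Control libraries and 13.4 and 7.70 TPM in the CEBPB libraries. Both CEBPB libraries were above both controls, and they differed from each other by more than the 2 controls did. edgeR put the change at 2.40 on the log2 scale (SE 0.31) with an adjusted p of 0.0024, and it stayed past the threshold without either CEBPB library (2.0 without replicate 1 and 2.71 without replicate 2). CEBPB replicate 1 also had the higher CEBPB level of the pair, and with 2 libraries this was not tested.

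NAIP, the receptor that hands bacterial ligands to NLRC4, did not follow it (ENSG00000249437.8, chromosome 5, 70968483 to 71025114, minus strand). It read 1.71 and 1.02 TPM in the Control libraries and 1.38 and 1.03 TPM in the CEBPB libraries, and the groups overlapped. The log2 fold change was -0.35 (95% interval -1.39 to 0.69, adjusted p = 0.522, edgeR), an interval that spans both a fall and a rise at this depth. The ratio of NLRC4 to NAIP transcripts was 0.915 and 1.92 in the Control libraries and 9.67 and 7.48 in the CEBPB libraries.

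CARD8, a sensor with a self-cleaving domain that is held silent by the dipeptidyl peptidases DPP8 and DPP9, was the most abundant of the 6 sensors in every library (ENSG00000105483.18, chromosome 19, 48180770 to 48255946, minus strand). It read 66.3 and 67.1 TPM in the Control libraries and 77.0 and 95.5 TPM in the CEBPB libraries. Both CEBPB values were above both controls, but the log2 fold change of 0.20 did not pass (95% interval -0.15 to 0.54, adjusted p = 0.285, edgeR). Its call turned on the scaling and on 1 library. With library totals in place of trimmed means it was 0.37 (adjusted p = 0.0432, edgeR), without CEBPB replicate 1 it was 0.39 (adjusted p = 0.0162, edgeR), and without CEBPB replicate 2 it was -0.0051 (adjusted p = 0.956, edgeR). DPP9 was at 24.4 and 25.6 TPM in the controls and 29.1 and 28.8 TPM with CEBPB, with a log2 fold change of 0.030 (95% interval -0.17 to 0.23, adjusted p = 0.779, edgeR), and its sign flipped with recovered reads (-0.034).

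NLRP1, the relative of CARD8 that senses proteases and double-stranded RNA in epithelia, stood at 0.806 and 0.778 TPM in the Control libraries and 0.776 and 1.11 TPM in the CEBPB libraries (ENSG00000091592.17, chromosome 17, 5499427 to 5619424, minus strand). The groups overlapped, and the log2 fold change was 0.057 (95% interval -1.02 to 1.13, adjusted p = 0.931, edgeR). AIM2, which binds DNA in the cytosol, stood at 1.51 and 0.665 TPM in the Control libraries and 0.678 and 0.780 TPM in the CEBPB libraries (ENSG00000163568.16, chromosome 1, 159062484 to 159147096, minus strand). Its log2 fold change was -0.74 (95% interval -2.10 to 0.62, adjusted p = 0.309, edgeR), and the high value of Control replicate 1 set its size: without that library it was -0.013.

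The 6 sensors together summed to 110 and 110 TPM in the Control libraries and 108 and 122 TPM in the CEBPB libraries, so the ranges of the sum overlapped while its make-up differed. NLRP3 made up 34.5% and 34.8% of the sum in the Control libraries and 13.8% and 12.7% in the CEBPB libraries. NLRC4 made up 1.42% and 1.79% in the Control libraries and 12.4% and 6.33% in the CEBPB libraries. CARD8 held the largest share in each, 60.4% and 61.2% in the Control and 71.2% and 78.5% in the CEBPB libraries. The shares were not tested and are given as descriptions.

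**Figure D3:**
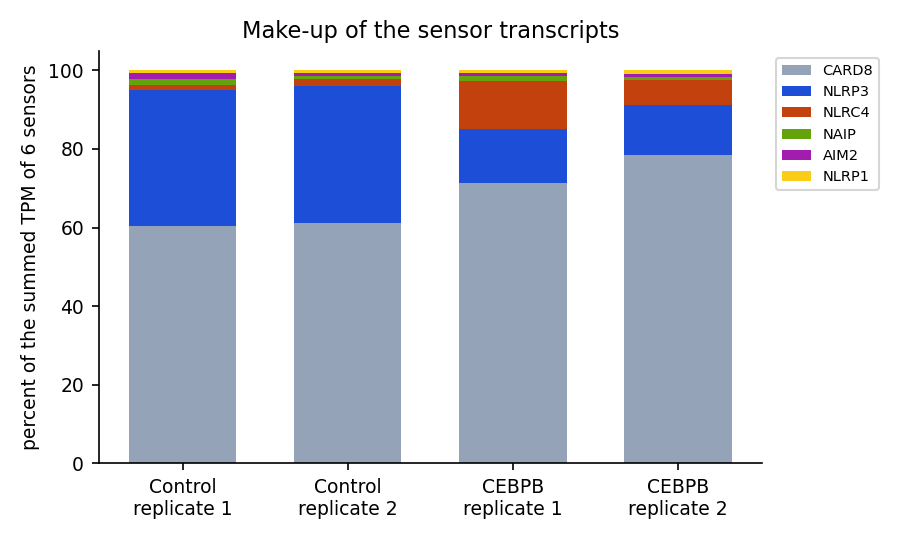
Share of each of the 6 sensors in their summed TPM, in percent, with 1 bar per library. The NLRP3 part is 34.5% and 34.8% in the Control bars and 13.8% and 12.7% in the CEBPB bars, and the NLRC4 part is wider in both CEBPB bars.

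PYCARD encodes ASC, which links a pyrin-domain sensor such as NLRP3 or AIM2 to caspase-1 through its CARD (ENSG00000103490.14, chromosome 16, 31201485 to 31203450, minus strand). It read 79.2 and 79.6 TPM in the Control libraries and 35.7 and 32.9 TPM in the CEBPB libraries. The groups did not overlap, and edgeR put the change at -1.39 on the log2 scale, with an SE of 0.07 and an adjusted p of 1.8e-04. Over the same libraries the ratio of PYCARD to NLRP3 transcripts was 2.09 and 2.09 in the Control and 2.40 and 2.12 in the CEBPB libraries. In GENCODE v29, 56.3% of the distinct 31-base words of PYCARD transcripts also occur, on the opposite strand, in its antisense neighbour PYCARD-AS1, which was not analysed here. The library kit keeps strand, but the strand setting of the quantification is not given in the sources used here, so PYCARD reads cannot be told apart from antisense reads with certainty.

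CASP1, the protease that matures IL-1β and IL-18, was higher in both CEBPB libraries (ENSG00000137752.25, chromosome 11, 105025443 to 105035250, minus strand). It read 68.1 and 68.9 TPM in the Control libraries and 192 and 167 TPM in the CEBPB libraries. On the rescaled counts edgeR put the log2 change at 1.21, with an SE of 0.07 and an adjusted p of 2.7e-04. CASP4, the human lipopolysaccharide-binding caspase, lies near it on the same strand (ENSG00000196954.14, chromosome 11, 104942866 to 104969436). It read 72.4 and 75.6 TPM in the Control libraries and 171 and 175 TPM in the CEBPB libraries. The log2 change from edgeR was 1.04, with an SE of 0.07 and an adjusted p of 4.1e-04. For both caspases the lowest CEBPB library was above 2 times the highest control.

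Also in this cluster, CARD16 encodes a CARD-only relative of caspase-1 that has no protease domain and can bind caspase-1. It was higher as well (ENSG00000204397.10, chromosome 11, 105041326 to 105101431, minus strand), at 26.1 and 29.5 TPM in the controls and 109 and 109 TPM with CEBPB (1.79, SE 0.09, adjusted p = 1.9e-04, edgeR). CARD16 transcripts per CASP1 transcript were 0.383 and 0.428 in the Control libraries and 0.569 and 0.649 in the CEBPB libraries. The first 120 coding bases of both genes are shown because reads from this stretch bear on both values; they come from GENCODE v29 on GRCh38, from the transcript of each gene with the longest coding sequence, are read 5′ to 3′ on the coding (minus) strand, and have capitals at the 2 positions where they differ.
CASP1: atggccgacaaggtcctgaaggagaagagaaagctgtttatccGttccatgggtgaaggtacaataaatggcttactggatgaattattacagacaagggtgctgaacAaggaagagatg
CARD16: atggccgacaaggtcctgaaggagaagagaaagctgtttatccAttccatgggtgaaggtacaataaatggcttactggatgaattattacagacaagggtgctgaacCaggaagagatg
Of the 31-base words of CASP1 transcripts 7.66% also occur in CARD16, and of those of CARD16 17.8% occur in CASP1. The split of shared reads between these 2 genes is an estimate of the quantification, so the CARD16 level is the less certain of the pair. CASP5, the closest relative of CASP4, was listed at 0 in 3 libraries and at 0.184 TPM in CEBPB replicate 1, and 0.604% of the words of CASP4 occur in it.

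GSDMD encodes gasdermin D, the substrate of both caspases (ENSG00000104518.11, chromosome 8, 143553207 to 143563062, plus strand). It read 53.7 and 52.8 TPM in the Control libraries and 42.3 and 44.3 TPM in the CEBPB libraries. The groups did not overlap, and the fall was small, with a log2 fold change of -0.48 (95% interval -0.68 to -0.28, adjusted p = 0.0054, edgeR). GSDMD did not pass the test against a 1.5-fold change.

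There were 0.860 and 0.865 CASP1 transcripts per PYCARD transcript in the Control libraries and 5.36 and 5.09 in the CEBPB libraries. Per GSDMD transcript there were 1.27 and 1.30 of CASP1 in the Control and 4.53 and 3.78 in the CEBPB libraries. CASP4 per CASP1 stayed within 0.891 to 1.10 over all 4 libraries, and here the groups did not overlap by a narrow margin (1.06 and 1.10 against 0.891 and 1.04).

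Other genes of the pathway were taken from 5 lists chosen by role, with earlier results of these data known. Their counts beside the background are therefore a description and not an independent comparison. Of 57 listed genes 40 could be tested, of which 21 were higher, 8 lower and 11 did not pass; the background is 23.7% higher and 24.7% lower. Their median log2 fold change was 0.37, against 0.00092 over all identifiers tested. Of the 17 genes not tested, CARD17 was not analysed here and 16 had too few counts, reaching 1.54 TPM (IL33) at most. Against a 1.5-fold change, 9 of the 40 were higher and 3 lower. Over all 13698 identifiers tested, 1186 were higher and 1188 lower by that test (17.3% in either direction).

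The cytokine genes and their antagonists moved in opposite directions, with 3 of 5 tested genes higher and 2 lower (all identifiers tested: 23.7% and 24.7%). IL1B, the substrate of caspase-1 named in the title, was at 50.9 and 46.6 TPM in the controls and 124 and 84.1 TPM with CEBPB (0.91, adjusted p = 0.0078, edgeR). IL1B did not pass against a 1.5-fold change, where 2 of the 5 genes stayed higher and 1 lower. IL18 averaged 23.7 ± 1.04 TPM (SD, n = 2) in the controls and read 61.3 and 44.5 TPM with CEBPB (0.98, adjusted p = 0.0035, edgeR). IL1A, which does not need caspase-1 to be active, rose from 0.353 and 0.108 TPM to 6.35 and 3.10 TPM (4.21, adjusted p = 0.0041, edgeR). The IL1A change ranged from 3.53 without Control replicate 2 to 5.40 without Control replicate 1, and it was 2.17 on the log2(TPM + 1) scale. The decoy ligand IL1RN fell from 13.3 and 14.8 TPM to 3.53 and 2.48 TPM (-2.40, adjusted p = 5.2e-04, edgeR), and IL18BP, which traps IL-18, fell from 7.09 and 6.27 TPM to 3.89 and 4.30 TPM (-0.89, adjusted p = 0.011, edgeR). IL18BP did not pass without Control replicate 1 (-0.79, adjusted p = 0.0621, edgeR). Per CASP1 transcript, IL1B stood at 0.748 and 0.677 in the Control and 0.647 and 0.503 in the CEBPB libraries.

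Among 8 tested sensors outside the main set, 2 were higher and 1 lower (all identifiers tested: 23.7% and 24.7%). NLRC5, a regulator of MHC class I genes, rose from 26.1 and 29.7 TPM to 71.4 and 55.0 TPM (1.0, adjusted p = 0.0023, edgeR), and NLRP12 rose from 2.17 and 1.52 TPM to 7.19 and 6.23 TPM (1.68, adjusted p = 0.0033, edgeR). IFI16, a DNA sensor of the AIM2 family, fell from 21.2 and 22.9 TPM to 6.38 and 8.97 TPM (-1.70, adjusted p = 0.0017, edgeR).

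Triggers, chaperones and brakes held 11 of 20 tested genes higher and 3 lower (all identifiers tested: 23.7% and 24.7%). Against a 1.5-fold change, 4 stayed higher and 1 lower (17.3% of all identifiers passed in either direction). Protease inhibitors were among the genes that rose. SERPINB1, an inhibitor of neutrophil proteases that also restrains caspase-1, was at 84.2 and 86.4 TPM in the controls and 191 and 176 TPM with CEBPB (0.93, adjusted p = 3.7e-04, edgeR). SERPINB9, an inhibitor of granzyme B, went from 0.439 and 0.568 TPM to 39.8 and 27.7 TPM (5.86, adjusted p = 1.5e-04, edgeR). GBP1, a GTPase that coats bacteria and brings caspase-4 to lipopolysaccharide, went from 1.78 and 1.35 TPM to 73.4 and 36.1 TPM (4.96, adjusted p = 7.6e-04, edgeR). P2RX7, the ATP-gated channel that drives potassium out of the cell and so triggers NLRP3, fell from 22.2 and 19.4 TPM to 6.09 and 7.82 TPM (-1.76, adjusted p = 0.0011, edgeR).

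Smaller changes were seen in other genes of this list. BRCC3, which removes ubiquitin from NLRP3, fell by 0.47 on the log2 scale (adjusted p = 0.0047, edgeR). The potassium channel KCNK6 fell by 0.69 (adjusted p = 0.018, edgeR). NEK7, a kinase that bridges NLRP3 subunits, rose by 0.38 (adjusted p = 0.021, edgeR). KCNK6 did not pass without Control replicate 1 (adjusted p = 0.0526), Control replicate 2 (0.103) or CEBPB replicate 1 (0.0631), nor NEK7 without Control replicate 1 (0.0965) or Control replicate 2 (0.0890, edgeR).

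Of the other caspases, gasdermins and NINJ1, 4 of 6 tested genes were higher and 2 lower (all identifiers tested: 23.7% and 24.7%). None of them passed against a 1.5-fold change. GSDMB, a gasdermin related to GSDMD, rose by 1.84 on the log2 scale (adjusted p = 0.016, edgeR). Its level was low, at 0.443 and 0.743 TPM in the controls and 2.15 and 2.75 TPM with CEBPB. It had 13.0 and 25.0 recovered reads in the Control and 49.1 and 67.1 in the CEBPB libraries. On the rescaled counts CASP8, the initiator caspase of death receptors, fell by 0.26 (adjusted p = 0.034, edgeR). Its TPM overlapped between the groups, at 41.1 and 41.6 in the controls and 41.7 and 36.3 with CEBPB. NINJ1, which ruptures the membrane after pores have formed, fell by 0.39 (adjusted p = 0.040, edgeR). The falls of CASP8 and NINJ1 each passed under 9 of 18 alternative settings, and with library totals neither did (adjusted p = 0.520 and 0.170, edgeR). Without Control replicate 1 only 1 of the 6 was higher and 0 lower, and without Control replicate 2 it was 2 and 0. GSDMB did not pass without Control replicate 1 (adjusted p = 0.0870, edgeR) or CEBPB replicate 2 (0.0782). CASP8 did not pass without Control replicate 1 (adjusted p = 0.135, edgeR), Control replicate 2 (0.157) or CEBPB replicate 2 (0.0946), nor NINJ1 without Control replicate 1 (0.165), Control replicate 2 (0.0882) or CEBPB replicate 1 (0.147).

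**Figure D4:**
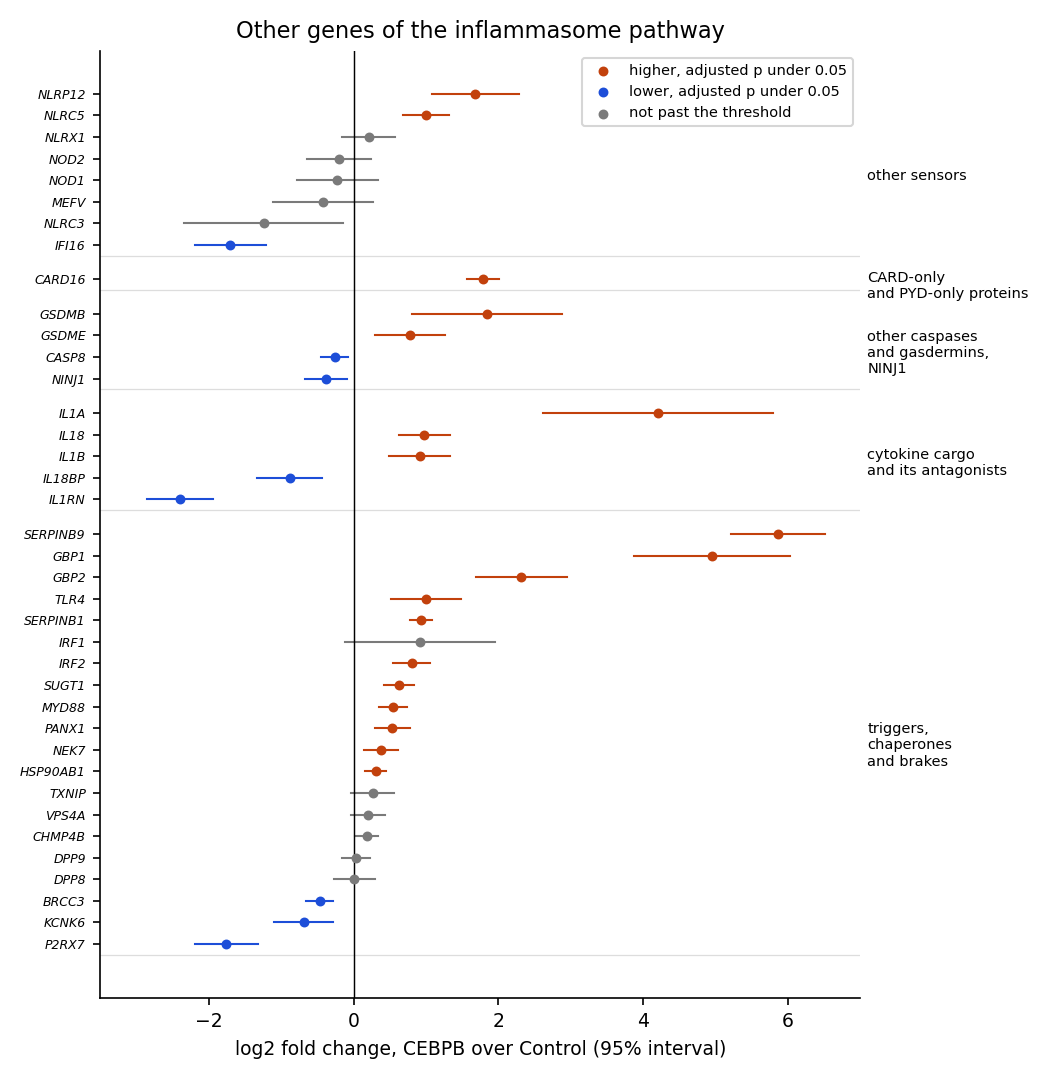
Log2 fold change, CEBPB over Control, of 38 of the 40 tested pathway genes, grouped by list and ordered by value, each with its unadjusted 95% interval from edgeR; colour marks the adjusted p. SERPINB9 (5.86) and GBP1 (4.96) lie farthest to the right, and IL1RN (-2.40) farthest to the left.

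An effective length was also deposited for each gene and library, an average over its transcripts that can move with the mix of transcripts. What else moves it was not tested. For NLRP3 it was 4128 and 4154 bases in the Control and 4338 and 4332 bases in the CEBPB libraries. For CASP1 it was 1108 and 1084 bases in the Control and 1125 and 1172 bases in the CEBPB libraries. Tested with limma over 13698 identifiers, none of the 10 genes passed (NLRP3 log2 difference 0.066, adjusted p = 0.370; CASP1 0.067, adjusted p = 0.473), nor did any identifier (0%), while 1827 had an unadjusted p under 0.05. The median difference over all identifiers was 0.032.

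The sensors with the fewest reads varied most in effective length. AIM2 had an effective length of 503 bases in Control replicate 1 and of 981, 1083 and 1078 bases in Control replicate 2 and the 2 CEBPB libraries. Its recovered reads were 13.0, 12.0, 12.0 and 12.0, whereas its deposited counts, which follow TPM alone, were 30.1, 14.4, 14.9 and 14.2. The high AIM2 level of Control replicate 1 goes with a shorter effective length and about the same number of reads. NAIP went the opposite way, with 109 and 43.5 recovered reads in the Control and 47.6 and 21.7 in the CEBPB libraries, over effective lengths of 3738, 2325, 2107 and 1475 bases. With recovered reads its log2 fold change was -1.19 (adjusted p = 0.0859, edgeR), still short of the threshold. Of the 31-base words of NAIP 47.4% occur in other genes, 36.2% in AC140134.1 and 28.7% in AC145138.1 (a word can occur in both). AC139495.1 and AC146944.2, with 10.9% each, both read 0.472 and 2.57 TPM in the controls and 0.798 and 0 TPM with CEBPB. NAIP values are therefore uncertain. NLRP1 had 51.2, 62.0, 63.0 and 63.0 recovered reads.

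**Figure D5:**
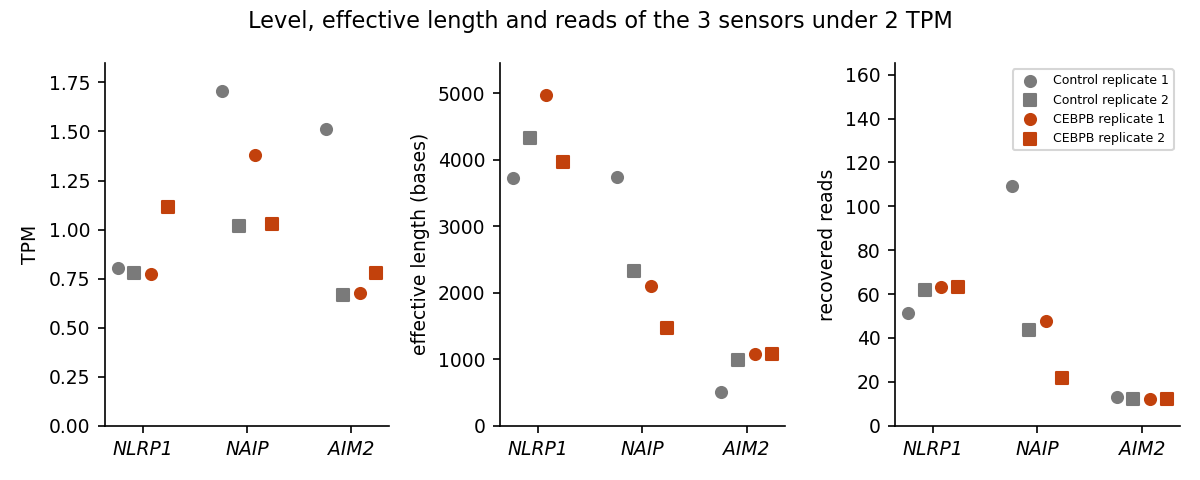
TPM, effective length in bases and recovered reads of NLRP1, NAIP and AIM2, with 1 point per library (grey, Control; orange, CEBPB; circles, replicate 1; squares, replicate 2). AIM2 reads 1.51 TPM in Control replicate 1 with 503 bases and 13.0 recovered reads, next to 12.0 recovered reads in each of the other libraries.

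RefSeq promoters (GRCh38.p14) were examined for 6 of the 10 genes, in 12 windows: AIM2, NLRP3, NLRC4, CASP4, PYCARD and CARD8. Promoters of NLRP1, NAIP, CASP1 and GSDMD were not examined, so the counts below do not cover these genes. The RefSeq starts differ from the GENCODE gene positions given above. Several windows lie wholly inside those positions, among them the windows of AIM2, CASP4 and PYCARD, and the NLRP3 window ends inside them. The 250 bases before each start were searched on both strands for TTGCNNAA (a C/EBP-like word), the interferon-stimulated response element and GAGGAA (an ETS and PU.1 core). Of all 35116 windows of this length 9.05% held the first, 3.02% the second and 23.6% the third. Only 1 of the 12 windows, at the most upstream of 3 NLRC4 starts, held TTGCNNAA. GAGGAA was in 6 of the 12, among them windows of NLRC4, NLRP3 and PYCARD, and the interferon element in 3, of AIM2 and CARD8. Windows of NLRC4 and of CARD8 overlap, so these are 4 distinct GAGGAA sites, in NLRP3, NLRC4, PYCARD and CARD8, and 2 distinct interferon elements. The CASP4 window held none of the 3. The windows of 3 genes are shown because their genes passed the test in different directions, NLRC4 higher and NLRP3 and PYCARD lower; letters run 5′ to 3′ on the gene's strand, and capitals mark a match to any of the words on either strand.
NLRC4 (chr2:32265744-32265993, minus strand): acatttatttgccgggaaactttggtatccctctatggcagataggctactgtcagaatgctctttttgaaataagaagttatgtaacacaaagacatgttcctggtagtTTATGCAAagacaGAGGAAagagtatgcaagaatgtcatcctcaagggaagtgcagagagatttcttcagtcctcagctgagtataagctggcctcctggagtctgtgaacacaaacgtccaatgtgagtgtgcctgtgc
NLRP3 (chr1:247415923-247416172, plus strand): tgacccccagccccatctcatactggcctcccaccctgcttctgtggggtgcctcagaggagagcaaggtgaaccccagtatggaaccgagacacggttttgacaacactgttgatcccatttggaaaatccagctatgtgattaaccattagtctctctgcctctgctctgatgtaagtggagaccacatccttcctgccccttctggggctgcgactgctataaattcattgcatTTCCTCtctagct
PYCARD (chr16:31202761-31203010, minus strand): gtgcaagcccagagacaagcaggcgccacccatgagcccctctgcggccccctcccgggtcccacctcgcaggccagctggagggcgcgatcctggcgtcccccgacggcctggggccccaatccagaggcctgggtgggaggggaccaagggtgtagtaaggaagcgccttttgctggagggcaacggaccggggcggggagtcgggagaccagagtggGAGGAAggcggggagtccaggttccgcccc
In NLRC4 the C/EBP-like word starts 140 bases and the GAGGAA word 127 bases before the start site. A match is a description of the letters and not of binding.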

How the data were processed

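OCI-AML3 RNA was sequenced in 2 Plex CEBPB and 2 Plex Control libraries. Per the labels' protocols, poly(A) libraries were prepared from 1 ug of RNA with an Illumina kit that keeps strand. The submitters' processing notes name Trimmomatic 0.39, kallisto 0.46.2 and GRCh38; annotation release, strand setting and the gene-level step are not given in the sources used here. The authors deposited, per gene, TPM values, estimated counts from that quantification and effective lengths in bases. Each deposited count equals TPM times 1 constant per library, so the counts are rescaled TPM values and carry no length. For NLRP3 in Control replicate 1 the deposited count was 752 and the recovered reads were 2669. The main edgeR test took the deposited values as counts, so its counting error does not follow the reads of each gene. Recovered reads, with and without a length offset, were alternatives.

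Low genes were removed by filterByExpr on the groups, and the rounded counts were scaled by trimmed mean of M values and tested with edgeR 4.0.16 (R 4.3.3). The SE is the fold change over the square root of F. Log2 effective lengths were tested with limma 3.58.1. DESeq2 1.42.0 was an alternative; 18 alternatives were run for expression and 6 for length. Of 41084 identifiers 35690 matched a symbol. Shared 31-base words were counted on both strands in GENCODE v29 transcripts, which is not the authors' annotation. Members, lists, tests and alternatives were chosen with earlier results of these data known. Text names all members, CEBPB, IL1B, IL18, DPP9, NEK7, CARD16 and up to 3 genes per list and direction with the smallest adjusted p; genes sharing sequence with a member, and markers, were added after values were seen. Values of some listed genes are not reported here.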

Additional observations from a re-analysis of the deposited data

How the results depend on the processing

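NLRP3, NLRC4, PYCARD, CASP1 and CASP4 kept their direction and stayed past the threshold under all 18 alternatives, with log2 fold changes of -1.56 to -1.27, 2.0 to 2.71, -1.44 to -1.19, 1.16 to 1.39 and 0.99 to 1.22. GSDMD did so under 17, from -0.55 to -0.29, and failed only against a 1.5-fold change. CARD8 passed with library totals, with log2(TPM + 1) and log2(TPM + 0.1) (0.37, 0.36 and 0.36) and without CEBPB replicate 1. These 3 settings moved the median of all identifiers to 0.18, 0.15 and 0.18, and the share of calls that were higher from 49.0% to 65.2%, 64.8% and 64.9%. With each library left out once (the single one that remains is taken to vary as the other group does), NLRP1 ranged from -0.25 to 0.33, NAIP from -0.68 to 0.062, CARD8 from -0.0051 to 0.39 and DPP9 from -0.0050 to 0.069; DPP9 was also at -0.034 with recovered reads and at -0.019 with these and a length offset. Over the same fits the length difference ranged from -0.018 to 0.31 for NLRP1, -0.15 to 0.075 for CARD8, -0.012 to 0.029 for PYCARD and -0.019 to 0.021 for GSDMD. NLRP1 and AIM2 gave no value with at least 1 CPM in 2 libraries.

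Of the pathway genes, 9 were higher and 3 lower against a 1.5-fold change, 5 were lower with DESeq2, and 16 to 21 were higher and 4 to 7 lower with 1 library left out. Over all identifiers, 1186 were higher and 1188 lower against a 1.5-fold change, against 3251 and 3390. The replicate numbers share no stated origin. With a replicate block 3 members were higher and 3 lower as before, and 22 pathway genes were higher and 8 lower; the deviations of same-numbered libraries correlated at -0.013 over 13698 identifiers, so the numbers were not taken to pair the libraries. The block changed no call of a member. Depth limits NLRP1, NAIP and AIM2, at 12.0 to 109 recovered reads per library.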
